A study of Mus musculus with 58 samples.

Results

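Newly made RNA was followed over the first hours after auxin in mouse embryonic stem (mES) cells that lack the KDM5A and KDM5B demethylases. The libraries were chosen by their labels alone, as the SLAM-seq libraries of DPY30–mAID *Kdm5a/b* double-knockout (dKO) cells at 0 h, 4 h and 8 h, with 2 replicates at each time, which makes 6 of the 58 libraries of the series. For each gene, the reads with a T>C conversion were counted and scaled to all reads of the same library, and genes that were lower at both times are described first. The question was how early, and at which genes, transcription falls once DPY30 is degraded in cells without these H3K4 demethylases.

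All 6 libraries came from E14 mES cells of the 129/Ola background, grown in serum with leukaemia inhibitory factor. Every cell in the comparison, the 0 h controls included, carried DPY30 fused to an auxin-inducible degron (mAID) together with the OsTIR1 ligase, and deletions of *Kdm5a* and *Kdm5b*, so that the groups differ only in the time spent in auxin (0 h, 4 h or 8 h). The dKO was built in the DPY30–mAID line by removing *Kdm5a* first and *Kdm5b* second, and a pair of clones was kept. The labels do not give the clone, and do not say whether replicates were separate cultures. The p-values therefore measure only the spread between the libraries that entered a fit. All cells received 100 µM 4-thiouridine (4SU) for 60 min before RNA isolation. DPY30–mAID cells without the deletions and RBBP5–FKBP cells, in which RBBP5 is removed with dTAG-13, were used for comparison only. Each of these lines had 3 libraries at 0 h and 3 at 8 h. The fits also took in the 2 h, 24 h and 48 h libraries of the dKO and the 2 h and 24 h libraries of the other lines. Those libraries entered the estimate of the spread and the filter on reads.

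SET1/COMPASS complexes place methyl groups on lysine 4 of histone H3, and DPY30 and RBBP5 are subunits that these complexes share. Trimethylation (H3K4me3) sits at the start of active genes, most of all at starts that lie in CpG islands, and KDM5 enzymes take it off. In SLAM-seq, 4SU that was built into new RNA is alkylated and then read as C in place of T, so that T>C reads report RNA made in the last hour and reads without a conversion report mostly older RNA.

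The guides that made the dKO are shown because the deleted genes are the feature that separates this line from its parent. In these cloning oligos the capitals are the 20-base guide and the lower-case letters are the vector overhang.
Kdm5a guide 1: caccGTGAAGTCAGGATTACCACC
Kdm5a guide 2: caccGTAATGACAAGGTTGTTACA
Kdm5b guide 1: caccGACTTTTTTCTTTAAAATAC
Kdm5b guide 2: caccGCATCTGCCTGCAAACAAAG
Of the 4 guides, Kdm5b guide 2 was found in an annotated transcript, at chr1:134589368-134589387 (GRCm38, on the strand opposite to the gene, followed by the PAM AGG). That position is in the intron after exon 4 of the coding transcripts Kdm5b-201 and Kdm5b-203. The other guides were matched to no annotated transcript of their gene, and the genome around them was not searched here.

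Reads on both deleted genes were lower in the dKO than in the parent line. *Kdm5a* had 26.0 and 27.5 CPM (all counted reads of the gene per 1000000 counted reads of the library) in the dKO at 0 h, 33.4 and 32.5 at 4 h, and 33.0 and 27.6 at 8 h, against 74.5 to 106 CPM in the 6 DPY30–mAID libraries of 0 h and 8 h. *Kdm5b* had 151 and 109 CPM at 0 h, 123 and 123 at 4 h, and 138 and 111 at 8 h, against 837 to 946 CPM in the same DPY30–mAID libraries. In T>C reads, *Kdm5a* ranged from 1.03 to 2.13 CPM in the dKO and from 6.84 to 30.8 CPM in DPY30–mAID cells, and *Kdm5b* from 2.40 to 3.72 and from 74.3 to 257 CPM. The lines did not overlap for either gene, and the direction is that of the labels. Genes that were not deleted were also lower in the dKO libraries, by less in total reads, with 59.6 to 77.6 CPM for *Kdm5c* and 57.3 to 74.4 for *Dpy30* against 79.7 to 126 and 78.8 to 172 in DPY30–mAID libraries, so a lower level alone does not mark a deleted gene. A dKO read covered 11.2 to 11.3 T positions and a DPY30–mAID read 18.5 to 19.0. At 0 h the share of covered T positions that were converted also differed, with 0.473% and 0.533% in the dKO against 0.998% to 1.08% in DPY30–mAID cells. T>C values of the lines are thus not on the same scale, and only the changes within a line are compared from here on. These reads come from the 3′ end of the mRNA, so they show neither the deleted exons nor the protein.

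The libraries held 5931269 to 7792404 counted reads, of which 245167 to 410332 carried a T>C conversion. T>C reads made up 4.69% and 5.27% of the reads at 0 h, 4.22% and 4.13% at 4 h, and 4.26% and 4.42% at 8 h. Both libraries at each auxin time lay under both 0 h libraries, with a mean share of 0.839 of the 0 h mean at 4 h and 0.873 at 8 h, where an exact permutation test (two-sided) gave p = 0.333 for each time, the smallest that 2 against 2 libraries allow. Unlabelled RNA came from 2 Quant-seq libraries (3′ mRNA reads without 4SU) of DPY30–mAID cells, labelled DMSO and retinoic acid 0 h. They gave 0.338% and 0.303% T>C reads. The paper describes alkylation for SLAM-seq only, so these libraries may differ from the dKO libraries by more than the missing 4SU. The sum over 10 markers of mES cells was 6930 and 7172 CPM of all reads at 0 h, 6752 and 6595 at 4 h, and 6330 and 6369 at 8 h. These sums fell with time without overlap between the times, which was not tested. Markers of primitive endoderm summed to 21.1 to 28.0 CPM, of trophectoderm to 46.7 to 52.3 and of neural progenitors to 35.4 to 41.9. Those of fibroblasts summed to 16.1 to 25.2, with 5 of 7 genes under 1 CPM, and those of 2-cell-like cells to 4.35 to 6.82. As these are bulk samples, fewer cells of a type and less RNA per cell cannot be told apart.

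The nascent RNA of most genes was slightly lower after auxin, and few genes stood out from this shift. Of 5965 tested genes, 75.9% had a log2 fold change below 0 at 4 h and 69.0% at 8 h, with medians of −0.26 and −0.19. Measured against the mean of the 0 h libraries, the medians of single libraries were −0.09 and 0.09 at 0 h, −0.22 and −0.26 at 4 h, and −0.20 and −0.14 at 8 h. The libraries after auxin were thus all under both 0 h libraries, and the 8 h mean of −0.17 was about as far from 0 as the 0 h libraries were from each other.

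A gene was called when its Benjamini-Hochberg adjusted p in edgeR's quasi-likelihood test was below 0.05 and its log2 fold change was beyond 1 in size. By this rule 12 genes (0.201% of those tested) were lower at 4 h and 42 genes (0.704%) were lower at 8 h. No gene was higher at 4 h (0 of 5965, 0%; 19 genes at an unadjusted p and 0 in DESeq2), and 1 gene (0.0168%) was higher at 8 h. Without the threshold on fold change, 35 genes (0.587%) were lower at 4 h and 92 (1.54%) at 8 h. The counts depend on the scaling: when T>C reads were scaled to T>C reads, which sets the median gene near 0, 3 genes were lower and 1 was higher at 4 h, and 12 were lower and 3 were higher at 8 h. In DESeq2, 1 gene was lower at 4 h, 17 were lower at 8 h and 1 was lower at both times. The counts vary also with single libraries, with 0 to 36 genes lower at 4 h and 9 to 57 at 8 h when each library was left out in turn, the highest counts being those without 0 h replicate 1.

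**Figure D1:**
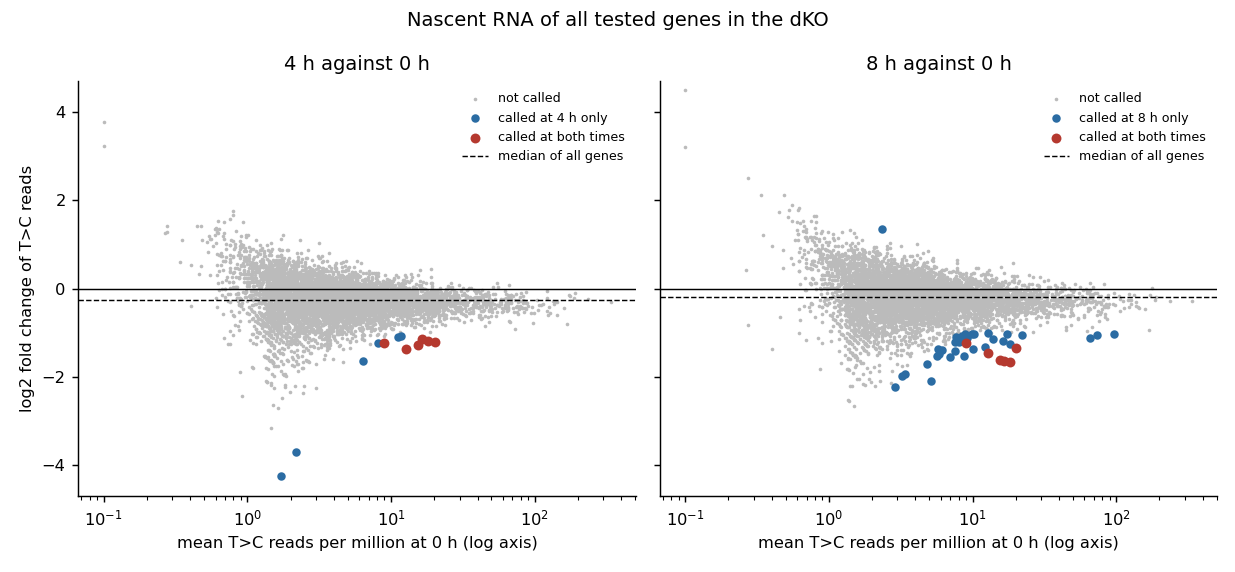
Each point is a tested gene of the dKO, with the mean 0 h T>C CPM on a log axis (values under 0.1 drawn at 0.1) and the log2 fold change of T>C reads at 4 h (left) or 8 h (right) on the vertical axis, clipped at 4.5. Red points are the 6 genes called at both times, blue points the genes called at the time shown only, and the dashed lines are the medians of −0.26 and −0.19. The red points lie between −1.38 and −1.15 at 4 h and between −1.66 and −1.22 at 8 h.

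Lower at both times were 6 genes (0.101% of those tested), namely *Rbm3*, *Peg10*, *Car2*, *Zfp979*, *Atp5j* and *Smarcad1*. They are 50.0% of the genes called at 4 h and 14.3% of those called at 8 h. Both contrasts use the same 0 h libraries, so the shared genes are a description and were not tested. 

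*Rbm3* (ENSMUSG00000031167, GRCm38 chromosome X from 8138975 to 8145880, minus strand) encodes an RNA-binding protein that is induced by mild cold. It had 16.0 and 20.4 T>C CPM at 0 h, 7.53 and 8.77 at 4 h, and 5.40 and 6.38 at 8 h. All auxin libraries were below both 0 h libraries, and the 8 h libraries were also below the 4 h libraries. The log2 fold change was −1.19 at 4 h (standard error 0.236, edgeR adjusted p = 0.00242) and −1.66 at 8 h (standard error 0.246, edgeR adjusted p = 2.23e-06). Reads that map to several places (multimapping reads) were 96.4% of its total, so the share of this gene in them is uncertain.

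*Peg10* (ENSMUSG00000092035, chromosome 6 from 4747306 to 4760517, plus strand) is an imprinted gene, expressed from the paternal copy, that derives from a retrotransposon. Its libraries gave 16.6 and 16.3 T>C CPM at 0 h, 8.10 and 6.91 at 4 h, and 5.40 and 5.32 at 8 h. Replicates were close at each time and the 3 groups did not overlap. The log2 fold change was −1.15 at 4 h (standard error 0.243, edgeR adjusted p = 0.00453) and −1.64 at 8 h (standard error 0.254, edgeR adjusted p = 4e-06). Multimapping reads were 0.289% of its total.

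*Car2* (ENSMUSG00000027562, chromosome 3 from 14886273 to 14900770, plus strand) encodes carbonic anhydrase 2, which interconverts carbon dioxide and bicarbonate. T>C reads were at 15.3 and 15.5 CPM at 0 h, 5.68 and 7.25 at 4 h, and 5.10 and 5.17 at 8 h. Every library after auxin was below both 0 h libraries, and most of the difference was present at 4 h. The log2 fold change was −1.28 at 4 h (standard error 0.256, edgeR adjusted p = 0.00243) and −1.61 at 8 h (standard error 0.264, edgeR adjusted p = 1.74e-05).

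*Zfp979* (ENSMUSG00000066000, chromosome 4 from 147611937 to 147642513, minus strand) encodes a zinc finger protein. It gave 20.0 and 20.3 T>C CPM at 0 h, 8.24 and 9.44 at 4 h, and 6.30 and 9.72 at 8 h. Both times were clearly apart from 0 h, and they overlapped each other. The log2 fold change was −1.21 at 4 h (standard error 0.234, edgeR adjusted p = 0.00199) and −1.36 at 8 h (standard error 0.237, edgeR adjusted p = 7.25e-05).

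*Atp5j* (ENSMUSG00000022890, chromosome 16 from 84827866 to 84835625, minus strand) encodes coupling factor 6, a subunit of mitochondrial ATP synthase. The values were 12.4 and 13.1 T>C CPM at 0 h, 3.84 and 6.24 at 4 h, and 4.80 and 4.56 at 8 h, so the auxin libraries were all below the 0 h libraries and the 2 auxin times overlapped. It fell by 1.38 at 4 h (log2; standard error 0.280, edgeR adjusted p = 0.00302) and by 1.47 at 8 h (standard error 0.281, edgeR adjusted p = 0.000456). As for *Rbm3*, nearly all of its reads (99.8%) were multimapping.

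*Smarcad1* (ENSMUSG00000029920, chromosome 6 from 65042583 to 65116061, plus strand) encodes a chromatin remodelling ATPase. Its level was the lowest of the 6, with 7.94 and 10.0 T>C CPM at 0 h, 4.69 and 3.03 at 4 h, and 3.60 and 4.25 at 8 h. The auxin libraries were again below the 0 h libraries, with no order between 4 h and 8 h. The log2 fold change was −1.22 at both times, with edgeR adjusted p = 0.0327 at 4 h and 0.0215 at 8 h, which were the weakest calls of the 6.

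**Figure D2:**
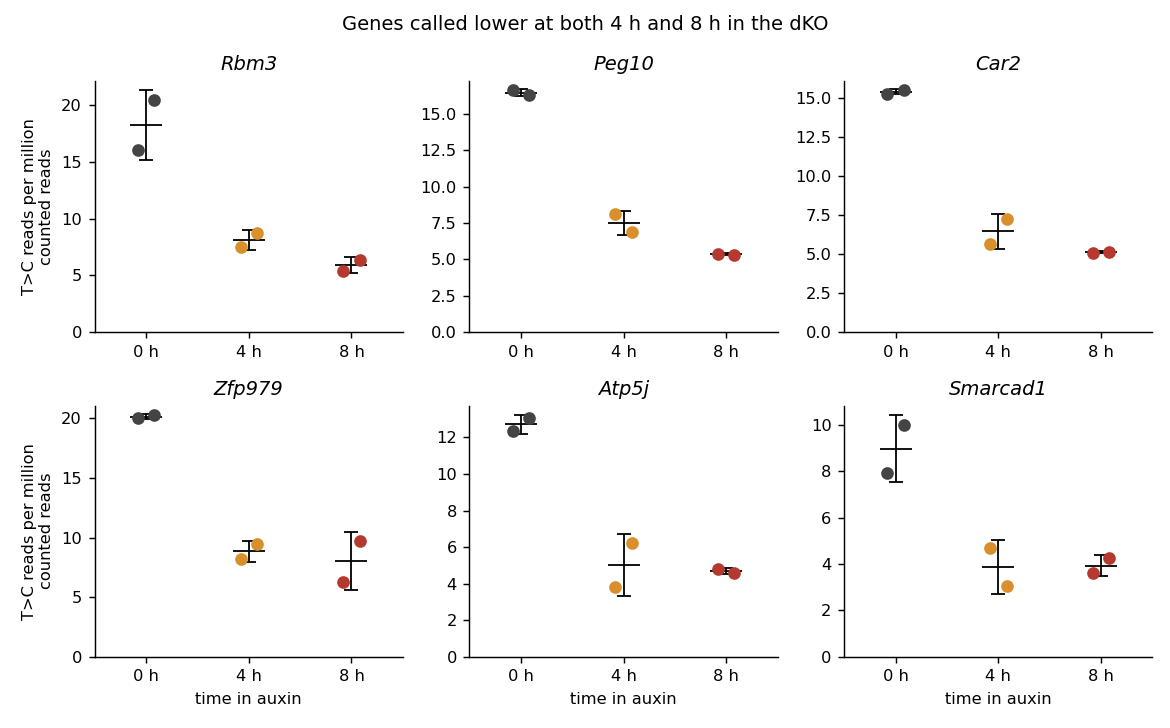
T>C CPM (vertical axis, starting at 0) of the 6 genes called lower at both times, at 0 h, 4 h and 8 h of auxin. Points are libraries (2 per time), and the horizontal and vertical bars are the mean and the SD. For each gene both 0 h points lie above all 4 points of 4 h and 8 h.

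The share of converted reads within each of these genes rests on the same T>C reads that chose them and is given as a description. It was 5.63% at 0 h, 2.98% at 4 h and 2.82% at 8 h for *Rbm3*, 5.61%, 2.96% and 2.62% for *Peg10*, and 6.89%, 3.59% and 3.95% for *Car2*. *Zfp979* and *Smarcad1*, whose RNA was labelled most at 0 h, went from 13.9% to 6.65% and 6.73% and from 13.3% to 7.42% and 8.39%. *Atp5j* had the lowest shares, 3.86%, 1.80% and 1.82%. In unlabelled RNA the share was 0.185% for *Atp5j* and 1.45%, the highest of the 6, for *Zfp979*, and each gene was above its own unlabelled share at every time.

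When T>C reads were scaled to T>C reads, which moves all genes up by a like amount, the values of the 6 genes were −1.12 to −0.89 at 4 h and −1.47 to −1.03 at 8 h, with 2 of them called at 4 h and 5 at 8 h. At 8 h *Peg10* and *Car2* passed under all 15 alternatives, and *Rbm3* and *Atp5j* under the 14 that held them. The filter on multimapping reads took out *Rbm3* and *Atp5j*, so they could not be tested under it. *Zfp979* was lost without 8 h replicate 1, and *Smarcad1* was lost in 5 of 15. At 4 h no gene passed without 4 h replicate 1 and 1 gene passed without 4 h replicate 2.

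Promoters were read from RefSeq (GRCm38.p6, 250 bases before to 50 bases after the start) because H3K4me3 is densest at CpG-rich starts. Among the 6 genes, *Smarcad1*, *Zfp979* and *Atp5j* had an entry, and they are shown with *Tdgf1*, which shares the smallest adjusted p among genes called at 8 h only with *Pcbp1*, and *Acvr1b*, the gene that rose. Capitals mark each CpG, which reads the same on both strands.
Smarcad1 promoter, chr6:65042341-65042640, plus strand: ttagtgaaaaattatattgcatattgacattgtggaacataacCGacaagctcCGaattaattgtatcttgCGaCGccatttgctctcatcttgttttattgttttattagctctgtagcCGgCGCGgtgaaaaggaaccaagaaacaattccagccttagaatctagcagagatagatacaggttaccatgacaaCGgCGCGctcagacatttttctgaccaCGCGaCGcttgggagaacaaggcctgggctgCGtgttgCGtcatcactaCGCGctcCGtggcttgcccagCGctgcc
Zfp979 promoter, chr4:147642459-147642758, minus strand: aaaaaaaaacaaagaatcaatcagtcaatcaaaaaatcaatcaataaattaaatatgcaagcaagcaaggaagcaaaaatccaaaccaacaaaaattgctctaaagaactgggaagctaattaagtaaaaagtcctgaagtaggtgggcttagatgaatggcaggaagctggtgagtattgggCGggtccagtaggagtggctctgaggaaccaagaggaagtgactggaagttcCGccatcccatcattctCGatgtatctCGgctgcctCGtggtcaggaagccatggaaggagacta
Atp5j promoter, chr16:84835576-84835875, minus strand: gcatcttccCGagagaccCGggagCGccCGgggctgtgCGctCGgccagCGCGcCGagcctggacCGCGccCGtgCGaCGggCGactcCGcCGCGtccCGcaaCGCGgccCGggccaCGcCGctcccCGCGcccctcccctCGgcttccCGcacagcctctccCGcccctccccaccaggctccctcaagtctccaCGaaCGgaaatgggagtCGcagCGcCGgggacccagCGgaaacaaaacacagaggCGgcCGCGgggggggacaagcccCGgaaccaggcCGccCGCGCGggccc
Tdgf1 promoter, chr9:110946109-110946408, minus strand: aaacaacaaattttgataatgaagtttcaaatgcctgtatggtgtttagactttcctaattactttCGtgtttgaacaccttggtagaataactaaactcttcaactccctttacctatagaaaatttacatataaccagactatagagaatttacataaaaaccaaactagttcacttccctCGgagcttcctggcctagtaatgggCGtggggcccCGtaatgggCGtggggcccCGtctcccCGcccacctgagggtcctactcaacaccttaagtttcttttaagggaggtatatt
Acvr1b promoter, chr15:101173822-101174121, plus strand: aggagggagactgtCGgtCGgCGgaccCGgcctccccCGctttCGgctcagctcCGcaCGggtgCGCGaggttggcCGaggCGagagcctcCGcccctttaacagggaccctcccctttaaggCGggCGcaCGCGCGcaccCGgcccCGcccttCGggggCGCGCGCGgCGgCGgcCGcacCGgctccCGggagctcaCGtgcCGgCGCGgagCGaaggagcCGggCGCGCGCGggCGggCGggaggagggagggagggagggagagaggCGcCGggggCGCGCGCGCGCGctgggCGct
The 3 promoters of genes that were lower at both times are unlike each other. *Atp5j* had 43 CpG in 300 bases with a GC content of 77.0%, *Smarcad1* 19 CpG with 47.3% GC, and *Zfp979* 5 CpG with 42.3% GC. Their ratios of observed to expected CpG were 0.990, 1.13 and 0.382, against 0.545 for *Tdgf1* (7 CpG) and 1.09 for *Acvr1b* (51 CpG).

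Among the 48 genes called lower at 4 h or 8 h, 34 had a promoter entry, with a median CpG ratio of 0.824 against 0.833 over the 4805 tested genes with an entry. A ratio over 0.6 was found in 24 of the 34 (70.6%) and in 84.7% of all. Split into 5 bins of CpG ratio, the tested genes had medians of −0.30, −0.24, −0.24, −0.26 and −0.25 at 4 h and −0.24, −0.17, −0.16, −0.20 and −0.19 at 8 h from the lowest to the highest ratio. In the same order the bins held 13, 2, 3, 6 and 10 of the 34 early genes, and 964, 960, 959, 961 and 961 of the tested genes.

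Called at 4 h and not at 8 h were *Uhrf1*, *Nsd1*, *Gdf3*, *Cct3*, *Nanp* and *Tpm4*, all of which also had a value below 0 at 8 h. *Nsd1*, a methyltransferase for lysine 36 of histone H3, had 5.88 and 6.93 T>C CPM at 0 h, 1.99 and 2.19 at 4 h, and 1.95 and 4.25 at 8 h. Its 4 h libraries were low and close together, and the 8 h libraries were below 0 h but apart from each other (log2 fold change −1.64 with edgeR adjusted p = 0.0187 at 4 h, −1.08 with edgeR adjusted p = 0.123 at 8 h). *Uhrf1*, which recruits the maintenance DNA methyltransferase, changed by −1.09 (edgeR adjusted p = 0.0423) and −0.94 (edgeR adjusted p = 0.0585), and 40.4% of its reads were multimapping.

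*Cct3*, a subunit of the chaperonin that folds actin and tubulin, gave 13.1 and 10.3 T>C CPM at 0 h, 5.40 and 5.73 at 4 h, and 10.2 and 8.20 at 8 h. Libraries of 4 h were well below 0 h, whereas those of 8 h lay just under the lower 0 h library (log2 fold change −1.09, edgeR adjusted p = 0.0275, and −0.36, edgeR adjusted p = 0.565). *Nanp*, an enzyme of sialic acid synthesis, changed by −1.22 at 4 h (edgeR adjusted p = 0.0377) and −0.37 at 8 h, but 98.8% of its reads were multimapping.

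The remaining genes called at 4 h rest on few reads. *Gdf3*, a ligand of the TGF-β family, had 6 and 20 T>C reads at 0 h, 0 and 1 at 4 h, and 1 and 5 at 8 h, and *Tpm4*, a tropomyosin, had 32 reads in both 0 h libraries together and 2 in both 4 h libraries, with 78.7% multimapping reads. Per counted read the 4 h level of *Gdf3* was 0.0433 of that at 0 h (95% exact binomial interval 0.00106 to 0.263) and that of *Tpm4* 0.0703 (0.00816 to 0.276), intervals that cover counting error only. The fitted log2 fold changes of −4.24 and −3.70 depend on how a library with 0 reads is treated.

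Lower at 8 h but not called at 4 h were 36 genes. All 36 had a value below 0 at 4 h, as did 75.9% of all tested genes. In all 36 both 8 h libraries lay under both 0 h libraries, as the call largely requires. The share of all tested genes without such overlap was not counted, so this is no result about the 36 genes. None of the 48 early genes, nor any other gene, was called between 8 h and 4 h (0 genes lower and 0 higher in edgeR, against 45 and 96 at an unadjusted p), so a later onset of these genes was not shown. Of the 42 genes called at 8 h, 11 fell by more than 1.5 on the log2 scale.

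*Tdgf1* (Cripto), the co-receptor of Nodal and a marker of undifferentiated mES cells, had 67.2 and 64.5 T>C CPM at 0 h, 42.3 and 37.6 at 4 h, and 27.6 and 34.3 at 8 h. The 3 groups did not overlap, and it had passed the p threshold already at 4 h with a smaller change (log2 fold change −0.74, edgeR adjusted p = 0.0058, then −1.12, standard error 0.162, edgeR adjusted p = 2.23e-06). Multimapping reads were 34.8% of the *Tdgf1* reads. *Pcbp1*, a poly(C)-binding protein of mRNA, had 93.0 and 100 T>C CPM at 0 h, 53.6 and 61.2 at 4 h, and 51.0 and 45.4 at 8 h.

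*Pcbp1* was thus well below 0 h at both times (log2 fold change −0.78, edgeR adjusted p = 0.00199, and −1.03, edgeR adjusted p = 2.23e-06). *Ppia*, the prolyl isomerase cyclophilin A, showed the same course (−0.91, edgeR adjusted p = 0.000575, and −1.04, edgeR adjusted p = 3.56e-06), but 99.6% of its reads were multimapping. *Zfp36l2*, which promotes decay of AU-rich mRNAs, and *Mapk1ip1l* changed by −1.38 and −1.04 at 8 h with 97.0% and 80.4% of such reads.

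*Atrx*, the remodeller that works with DAXX in H3.3 deposition, had 19.9 and 24.1 T>C CPM at 0 h, 13.1 and 13.8 at 4 h, and 11.4 and 10.2 at 8 h, without overlap between groups (−1.06 at 8 h, edgeR adjusted p = 0.00157). *Pml*, which builds nuclear bodies, changed by −1.38 at 8 h (edgeR adjusted p = 0.0349).

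The zinc finger genes *Zfp292* and *Zfp644* changed by −1.42 and −1.71 at 8 h, and for *Zfp644* the 4 h libraries, with 4.26 and 5.40 T>C CPM, lay within the 0 h range of 3.24 to 6.42 before both 8 h libraries were at 1.20 and 1.82. *Zdbf2*, an imprinted gene like *Peg10*, had 15.9 and 16.7 T>C CPM at 0 h, 9.95 and 8.60 at 4 h, and 8.26 and 6.38 at 8 h. Its groups did not overlap (−1.18 at 8 h, edgeR adjusted p = 0.00164).

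Among genes of the cell surface, *Plaur*, the urokinase receptor, changed by −1.53 at 8 h (edgeR adjusted p = 0.00242) and *Emp1*, a membrane protein, by −1.49 (edgeR adjusted p = 0.0234). *Rnf128*, a membrane-bound ubiquitin ligase, changed by −1.25 and *Trap1a*, a tumour rejection antigen on the X chromosome, by −1.54. *Aard* had the largest change of the named genes called at 8 h only, from 5.15 and 5.13 T>C CPM at 0 h to 1.28 and 3.37 at 4 h and 1.65 and 0.76 at 8 h (−2.10, edgeR adjusted p = 0.00339). *Msc*, a bHLH repressor, changed by −1.14, and the mitochondrial proteins *Chchd1* and *Chchd4*, a mitoribosome component and an import factor, by −1.20 and −1.13. The other 16 genes had log2 fold changes of −2.22 to −1.03, with edgeR adjusted p of 0.0354 to 0.0472 and 2.87 to 10.3 T>C CPM at 0 h. Just inside the threshold were *Kbtbd11* and *Maip1* (adjusted p of 0.0469 and 0.0472), and just outside it *Zfp987*, *Hopx* and *Zfp365* (0.0503, 0.0538 and 0.0550).

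The 48 early genes had mean 0 h levels of 1.72 to 96.7 T>C CPM with a median of 8.91, against 3.79 over all tested genes, so the called genes were better covered. They lay on 20 chromosomes, with 4 on the X (8.33%, against 2.95% of tested genes), and in 12 of them over 20% of reads were multimapping.

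The gene that rose was *Acvr1b*, the type I receptor through which activin and Nodal signal. It had 2.35 and 2.31 T>C CPM at 0 h, 5.26 and 4.89 at 4 h, and 5.70 and 6.53 at 8 h. All libraries after auxin were above both 0 h libraries (log2 fold change 1.10, edgeR adjusted p = 0.147 at 4 h, and 1.36, standard error 0.364, edgeR adjusted p = 0.0354 at 8 h). The 0 h level rests on 16 and 18 T>C reads, the call was lost when any 0 h or 8 h library was left out, and at 24 h and 48 h the values were −0.19 and −1.12. The products of *Tdgf1* and *Acvr1b* are known to act together in Nodal reception, and the genes moved in opposite directions at 8 h.

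Later libraries of the same dKO series show where the early genes went. All 6 genes called at both times were below 0 at 2 h, from −0.79 for *Atp5j* to −0.38 for *Smarcad1*, with none of them called there. At 24 h, when 27.5% of all tested genes were called lower, 5 of the 6 were called, with values of −2.73 for *Peg10*, −2.67 for *Car2*, −2.48 for *Zfp979*, −2.13 for *Atp5j* and −1.79 for *Rbm3*. *Smarcad1* was at −0.77, close to the median of −0.80, and was called again at 48 h (−1.82), when 64.4% of all genes and all 6 of these were called.

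**Figure D3:**
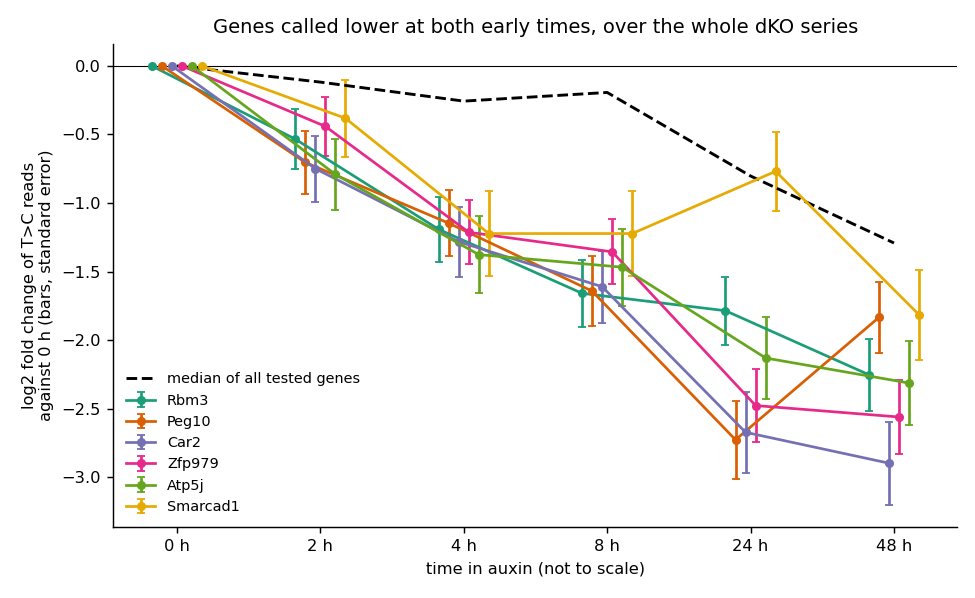
Log2 fold change of T>C reads against 0 h (vertical axis, bars are standard errors) of the 6 genes called lower at both 4 h and 8 h over the time in auxin (horizontal axis, not to scale, points shifted sideways). The dashed line is the median of the tested genes, which goes from −0.26 at 4 h to −0.19 at 8 h, −0.80 at 24 h and −1.29 at 48 h. All 6 genes are below it from 2 h on, apart from *Smarcad1* at 24 h.

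Of the 48 early genes, 38 (79.2%) were called lower at 24 h and 45 (93.8%) at 48 h, with median values of −1.67 and −1.87. These contrasts share the 0 h libraries with those that chose the genes, so the values are given side by side and were not tested. *Cct3*, *Zfp292* and *Zfp644*, with values of −0.46, −0.57 and −0.94, were among those not called at 24 h.

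In all reads, converted or not, the early changes were small. At 4 h 0 genes were called (40 lower and 40 higher at an unadjusted p, and 0 in DESeq2), and at 8 h 1 of 11394 genes (0.00878%) was called lower, *C330018D20Rik*, which is not among the early genes. All 48 early genes were below 0 in total reads at 8 h, and 20 of them passed the adjusted p without the fold threshold, against 52 genes (0.456%) of all. *Car2* changed by −0.81 in total reads (edgeR adjusted p = 0.000266), *Rbm3* by −0.66 and *Pcbp1* by −0.61.

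Total reads include the T>C reads, so the reads without a conversion were also tested alone, a choice made after the data were seen. Of the 48 genes, 44 were below 0 in these reads at 4 h and 48 at 8 h, with medians of −0.15 and −0.30, while the median over all genes was 0.01 and 0.02. At 8 h, 11 of the 48 passed the adjusted p, against 24 of 11317 genes (0.212%) in all. The values were −0.76 for *Car2*, −0.62 for *Rbm3*, −0.57 for *Pcbp1*, −0.51 for *Tdgf1* and −0.50 for *Peg10* (edgeR adjusted p from 0.000705 to 0.00315), and −0.20 for *Zfp979* (edgeR adjusted p = 0.418). With the 12 genes of ambiguous mapping left out, 36 of 36 were below 0 at 8 h, with a median of −0.33.

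The DPY30–mAID line, which keeps KDM5A and KDM5B, gives values of the same genes in libraries that were not used to choose them. At 8 h of auxin 14.5% of its 6317 tested genes were called lower, and of the 46 early dKO genes tested there 30 (65.2%) were called, with a median of −1.39 against −0.71 over all genes. The 8 h libraries of this line are far apart, and when each of its 0 h and 8 h libraries was left out in turn (chosen after the data were seen), 18 to 32 of the early genes were called, against 7.35% to 29.9% of all genes. In each of those fits the early genes had the higher share. The 0 h levels of the early genes differ from those of all tested genes, as given above, and the part of this in the share was not tested.

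Of the 6 genes called at both times, 5 were called lower in DPY30–mAID cells. *Rbm3* had 64.5, 41.7 and 48.5 T>C CPM at 0 h and 14.1, 7.74 and 6.84 at 8 h there, and *Peg10* 34.2, 29.2 and 43.8 at 0 h and 3.41, 5.32 and 15.5 at 8 h. For both genes all 8 h libraries were below all 0 h libraries (−2.52, edgeR adjusted p = 1.2e-05, and −2.24, edgeR adjusted p = 0.000844). *Car2* was at −1.29 (edgeR adjusted p = 0.182), with a 0 h library of 4.88 CPM under an 8 h library of 5.81. Of the genes called at 8 h only, *Tdgf1* had 87.4, 103 and 92.4 T>C CPM at 0 h and 89.5, 73.1 and 36.9 at 8 h in this line, groups that overlap (−0.61, edgeR adjusted p = 0.153). *Acvr1b* was at −0.42 (edgeR adjusted p = 0.697).

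**Figure D4:**
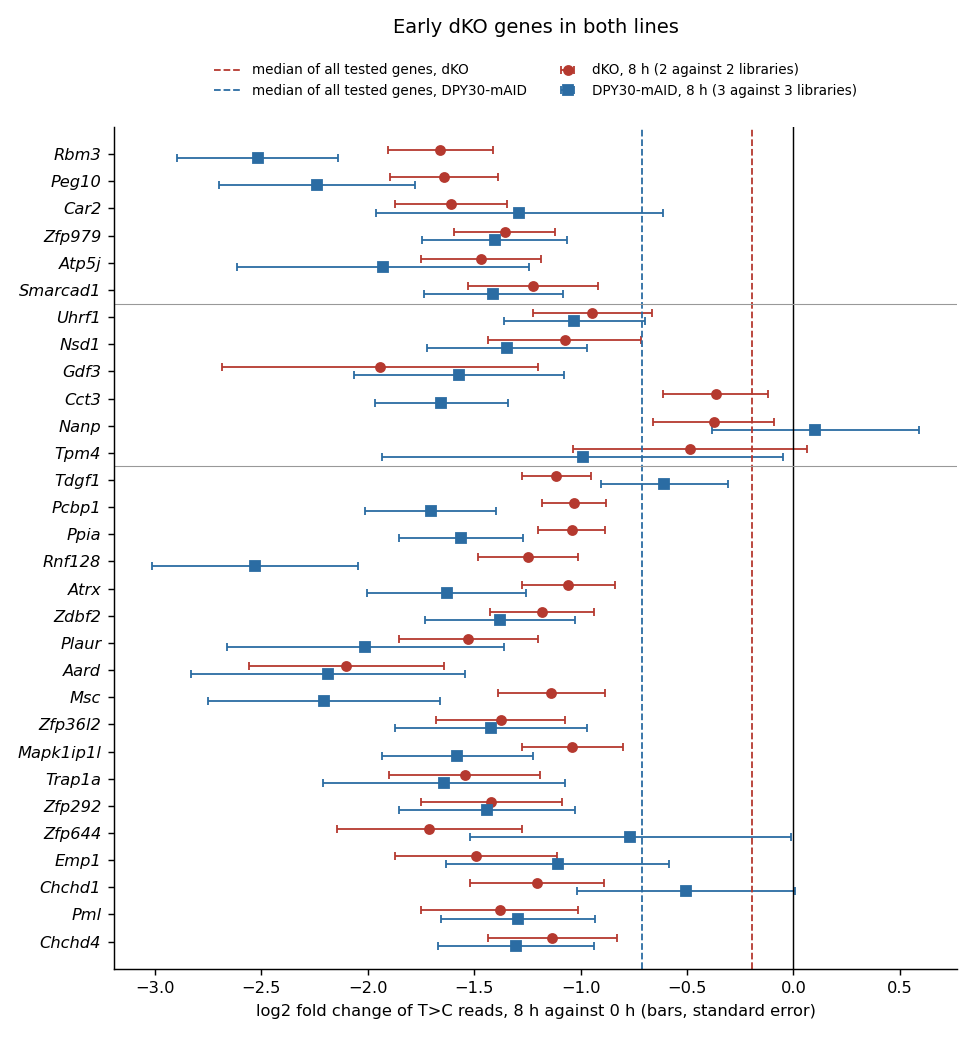
Log2 fold change of T>C reads at 8 h against 0 h (horizontal axis, bars are standard errors) in dKO cells (red circles, 2 against 2 libraries) and DPY30–mAID cells (blue squares, 3 against 3 libraries) for the genes called at both times (top), at 4 h only (middle) and 18 of the genes called at 8 h only (bottom). Dashed lines are the medians over the tested genes of each line, −0.19 and −0.71. The genes were chosen by their dKO calls, so red points below the dKO median were largely fixed by that choice. In DPY30–mAID cells most genes also lie below the median of that line, whereas *Nanp*, *Tdgf1* and *Chchd1* are above it.

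In RBBP5–FKBP cells at 8 h, 5 of 40 early genes tested (12.5%) were called lower, against 5.61% of 4761 genes. They included *Rbm3* (−1.39), *Peg10* (−2.31) and *Zfp979* (−1.35), whereas *Car2* and *Smarcad1* were at −0.60 and −0.38 (edgeR adjusted p = 0.747 and 0.549) and *Atp5j* was not tested.

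Whether the effect of 8 h of auxin differed between the dKO and the DPY30–mAID line was tested gene by gene in 1 fit of both. The difference (dKO minus DPY30–mAID) was above 0 and passed the test for 21 of 6901 genes (0.304%), was below 0 and passed for 1 (0.0145%), and had a median of 0.53. The first count was 0 without dKO 0 h replicate 1 and 623 without DPY30–mAID 8 h replicate 1, so every single call of this test depends on which libraries are used. DESeq2 gave 165 genes above 0 and 0 below, and with T>C reads scaled to T>C reads 28 were above and 10 below. None of the 48 early genes was called for a difference, and 16 of the 48 had a difference below 0, with a median of 0.18. Simulated differences of −1.5 and −2 on the log2 scale, set as a fall in the dKO at 8 h, were called for 0% and 4% of the changed genes (6993 genes in the simulation). Most differences below 0 of that size would thus be missed, and differences above 0 were not simulated. That the early genes act alike in both lines was not shown. Named after their values were seen, the genes with a difference above 0 included *Sfpq*, a splicing and paraspeckle protein (0.12 in the dKO, −2.41 in DPY30–mAID cells, edgeR adjusted p of the difference = 0.00105), *Nfyc*, *Actb*, *Srsf7* and the Polycomb partner *Jarid2*.

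*Mat2a*, which makes the methyl donor S-adenosylmethionine, was among the genes with a difference above 0. It had 63.5 and 72.0 T>C CPM at 0 h, 40.4 and 41.5 at 4 h, and 36.6 and 38.9 at 8 h, without overlap with 0 h. Its log2 fold change was −0.75 at 4 h (edgeR adjusted p = 0.00447) and −0.87 at 8 h (edgeR adjusted p = 0.000158), under the fold threshold, and it differed from that in DPY30–mAID cells by 1.55 (edgeR adjusted p = 0.016), a call that was lost, like all others of this test, without dKO 0 h replicate 1. Multimapping reads made up 43.4% of its reads.

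The 20 gene lists were read against the medians of −0.26 and −0.19 over all genes. Scaling T>C reads to T>C reads moved both medians to about 0 and left the medians of 8 of the 20 lists below 0 at 4 h and 10 at 8 h, against 18 and 20 with the total reads, so that list directions are read only relative to the median of all genes. The list medians were −0.58 to 0.25 at 4 h and −0.51 to −0.02 at 8 h.

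Of 15 tested naive pluripotency transcription factors 0 were called at 4 h or 8 h, also without the fold threshold, with list medians of −0.24 and −0.15. As 0.201% and 0.704% of all genes were called lower at these times, a count of 0 in this list, or in the others given here, is near the background and is no result about its members. *Sox2* had 136 and 132 T>C CPM at 0 h, 113 and 112 at 4 h, and 127 and 119 at 8 h, and *Klf4*, *Klf5* and *Zfp42* (Rex1) were at −0.16, −0.37 and −0.47 at 8 h, with 90.5% multimapping reads for *Zfp42*. In DPY30–mAID cells, where 14.5% of all genes were called lower at 8 h, 7 of 16 were called, *Klf4* (−1.19) and *Klf5* (−1.46) among them, and for none of the 4 named factors did the difference between lines pass the test (edgeR adjusted p of 0.182 to 0.556). Among 9 formative and epiblast genes 0 passed, with medians of −0.47 and −0.51.

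In the lists that follow, members that passed the adjusted p alone are to be read against 0.587% of all genes at 4 h and 1.54% at 8 h, and with lists this small 1 or 2 members are no result about a list. Of 10 Nodal and BMP genes, *Tdgf1* was lower and *Acvr1b* higher at 8 h, both of them receptors, and of the targets *Id1* was lower at 4 h by the adjusted p alone (−0.55, edgeR adjusted p = 0.0348). Of 14 FGF and ERK feedback genes, *Phlda1* was lower at 8 h by the adjusted p alone (−0.59, edgeR adjusted p = 0.0259), while the phosphatase gene *Dusp6* was at 0.02 and the inhibitor gene *Spry2* at −0.09. None of 13 immediate early genes and 7 Myc and Max genes passed, with *Myc* at 0.23 and 0.09 and *Mycn* at −0.02 and 0.07.

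In metabolism, 11 hypoxia-responsive genes included *Ldha*, lactate dehydrogenase A (45.9 and 43.6 T>C CPM at 0 h, 24.4 and 26.5 at 4 h, and 23.6 and 24.0 at 8 h). It did not overlap with 0 h at either time (−0.84 and −0.94, edgeR adjusted p = 0.00453 and 0.000378), and 53% of its reads were multimapping. The glucose transporter gene *Slc2a1* was lower at 8 h (−0.64, edgeR adjusted p = 0.0179). Of 11 cholesterol genes 0 were called at either time and 1 was lower at 8 h by the adjusted p alone, as were 2 of the 11 hypoxia genes, against 1.54% of all genes. The medians were −0.53 and −0.29 for the hypoxia list and −0.33 and −0.49 for the cholesterol list.

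The actin, SRF and YAP list had medians of −0.58 and −0.38 over 12 genes, with *Tpm4* called at 4 h and *Actg1* lower by the adjusted p alone (−0.60, edgeR adjusted p = 0.013), although 99.1% of the *Actg1* reads were multimapping. *Pcna*, the sliding clamp of DNA replication, was the only one of 28 cell cycle genes to pass the adjusted p, at both times, where 0.587% and 1.54% of all genes did (−0.59 and −0.73, edgeR adjusted p = 0.0442 and 0.00234, with 80.8% multimapping reads). Of 11 heat shock genes *Hspa5*, the chaperone of the endoplasmic reticulum, was lower at 8 h (−0.60, edgeR adjusted p = 0.0349). None of 15 p53 targets, 13 genes of the integrated stress response and 3 targets of the aryl hydrocarbon receptor passed.

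Large growth-related lists stayed at the median of all genes. Of 88 ribosome biogenesis factors 1 was called, *Rpf2* at 8 h (−1.08, edgeR adjusted p = 0.0455), and *Taf1d* passed the adjusted p alone (−0.88, edgeR adjusted p = 0.0381), counts near the shares of all genes (0.704% and 1.54%), with list medians of −0.24 and −0.17. Of 70 cytosolic ribosomal protein genes 0 were called and *Rpl15* and *Rps7* passed the adjusted p alone at 8 h (−0.54 and −0.57, edgeR adjusted p = 0.0455 and 0.0389), with medians of −0.24 and −0.17.

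The lists of the H3K4 machinery held 0 called genes, again near the background share. Among 16 subunits of the methyltransferase complexes the medians were −0.20 and −0.21, and *Dpy30*, a member whose protein auxin degrades, had 39 and 43 T>C reads at 0 h, 29 and 26 at 4 h, and 17 and 33 at 8 h. None of 4 H3K4 demethylases and 27 pausing, elongation and Integrator genes passed, with medians of 0.05 and −0.17 and of −0.18 and −0.19. The 4 demethylases include the deleted genes, whose remaining 3′ reads enter the medians. *Kdm5a* was at 0.31 at 4 h and 0.52 at 8 h, and *Kdm5b* at 0.02 and −0.38. These medians are thus not those of intact demethylase genes. Of 11 methionine cycle genes *Mat2a* was the only one to pass the adjusted p.

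**Figure D5:**
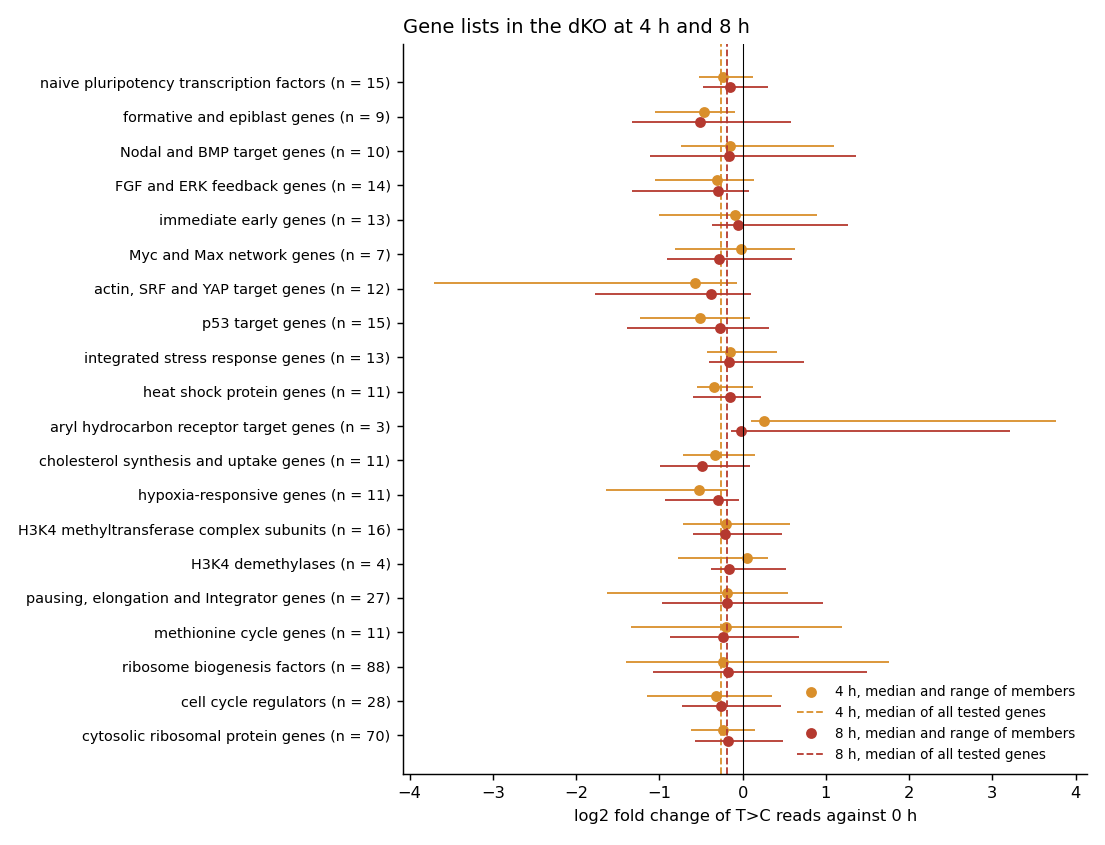
Median (points) and range (lines) of the log2 fold change of T>C reads against 0 h (horizontal axis) of the tested members of 20 gene lists at 4 h (orange) and 8 h (red). The dashed lines are the medians of all tested genes, −0.26 and −0.19. The long lines to the right for the aryl hydrocarbon receptor list come from *Cyp1a1*, with 0 T>C reads in both 0 h libraries, and the one to the left for the actin list from *Tpm4*.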

How the data were processed

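The deposited SLAM-seq values are counts: for each 3′ UTR interval the authors gave all reads and reads with a T>C conversion, as written by SlamDunk 0.3.4 per the file headers. HISAT2 2.2.1, Trim Galore, cutadapt, bcl2fastq and featureCounts are also listed in the submitters' processing notes. Reads with 1 conversion are included, and reads mapping to several places are kept.

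From the 46420 intervals, counts were summed over 20177 genes, all found in GENCODE vM21 (GRCm38). T>C counts were tested with edgeR 4.0.16 (R 4.3.3, quasi-likelihood test) in 1 fit of the 12 dKO libraries, with TMM factors from total reads, for genes that averaged 10 or more T>C reads at some time point. The thresholds for a call were a Benjamini-Hochberg adjusted p of 0.05 and a log2 change of 1. CPM are scaled to 1000000 counted reads per library. Self-tests on simulated data called 65% of genes changed by −1.5 at 4 h (6063 genes) and 62% at 8 h (6097 genes).

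Named were all genes called at 4 h or at both times, all that rose, and up to 20 called at 8 h only, by adjusted p. Some of these genes are not reported here. Other genes were named from lists or as stated. Members and lists were chosen with earlier results of these data known. The alternatives were DESeq2 1.42.0, other scalings, filters and thresholds, a replicate block and leaving out each library. Samples with the same replicate number did not deviate together (r of −0.00884 to 0.0358). Figures used Python 3.11.15, pandas 2.3.3, numpy 2.4.6 and matplotlib 3.10.9.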

Additional observations from a re-analysis of the deposited data

Results flagged for a closer look

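Between the lines, the effect of 8 h of auxin on T>C reads differed by the test of the difference for 21 genes with a value above 0 (dKO minus DPY30–mAID) and 1 gene with a value below 0. The count of 21 ranged from 0 without dKO 0 h replicate 1 to 623 without DPY30–mAID 8 h replicate 1, and DESeq2 gave 165 genes above 0 and 0 below. The gene below 0 was *Fignl2*, with a difference of −4.8 on the log2 scale (edgeR adjusted p = 0.0153). Its mean level was 4.79 T>C CPM at 0 h and 4.23 at 8 h in the dKO, and 0.358 and 10.9 in DPY30–mAID cells, so the difference comes from the higher level after auxin in DPY30–mAID cells.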

How the results depend on the processing

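The counts of called genes moved with most choices. DESeq2 called 1 gene lower at 4 h, 17 lower and 0 higher at 8 h, and 1 lower at both times. Scaling to T>C reads gave 3 lower and 1 higher at 4 h, 12 lower and 3 higher at 8 h and 2 at both times, with medians of 0.00038 and −0.0025. With no filter, 27 were lower and 0 higher at 8 h, and with a mean of at least 30 reads 2 were higher. Unadjusted p gave 218 lower and 19 higher at 4 h, 208 and 41 at 8 h, 59 lower at both times, and 45 lower and 96 higher between 8 h and 4 h. Without the fold threshold 35, 92 and 18 genes were lower at 4 h, at 8 h and at both times. With genes of over 20% multimapping reads left out 7 and 23 were lower. With only the 0, 2, 4 and 8 h libraries (chosen after seeing the data) 2 were higher at 8 h. Leaving out single libraries gave 0 to 36 lower at 4 h (36 without 0 h replicate 1, 2 without 0 h replicate 2, 0 and 1 without 4 h replicates 1 and 2), 9 to 57 lower at 8 h (11 without 0 h replicate 2, 9 and 15 without 8 h replicates 1 and 2), 0 higher at 8 h without any 0 h or 8 h library, and 0 to 17 at both times. Without single libraries the medians were −0.37 to −0.16 at 4 h and −0.31 to −0.09 at 8 h.

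With the replicate block, 15 genes were lower at 4 h, 53 at 8 h and 6 at both times, and 33 had a difference above 0 between the lines (dKO minus DPY30–mAID); the replicate numbers do not pair the samples. That line difference was above 0 for 165 genes and below 0 for 0 in DESeq2, below 0 for 10 with T>C scaling, above 0 for 11 without TMM, and 709 and 52 at an unadjusted p. Without single libraries 0 to 623 were above 0 and 0 to 8 below (623 without DPY30–mAID 8 h replicate 1, 75 without 8 h replicate 3, 0 without dKO 0 h replicate 1). For total reads, 0 genes were lower at 8 h in DESeq2 and in reads without a conversion, 1 was higher with the block, and unadjusted p gave 40 lower and 40 higher at 4 h and 50 and 46 at 8 h. Of the early genes, 18 to 32 were called in DPY30–mAID cells without single libraries of that line. The T>C share stayed lower without any library, by 0.51 to 1.09 percentage points at 4 h and 0.35 to 0.92 at 8 h. Of 552 values of named genes under alternatives, 429 stayed past the thresholds and 0 changed direction, not counting 19 values to which DESeq2 gave no adjusted p; 27 of 38 were lost without 0 h replicate 2. The causes were not tested.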
